A study of Sus scrofa with 23 samples.

Results

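The genes described here are 10 parts of the circadian clock, ARNTL, CLOCK, PER1, PER2, PER3, CRY1, CRY2, NR1D1, NR1D2 and DBP, out of 26687 genes in the annotation used for newborn pig kidney cortex. They were picked by symbol, and the estimated counts of all transcripts with that symbol were added together in each library. RNA-Seq was done on 23 libraries, 1 per numbered pig: 11 from CFTR-/- pigs (CF), 6 from CFTR+/- pigs (HET) and 6 from wild-type pigs (WT), all newborn. The study bred them from CFTR+/- parents and examined piglets within hours of birth, treated HET and WT together as non-CF, and asked what loss of the CFTR anion channel does to metabolism. CFTR+/- and wild-type piglets are thus both controls here, 1 of which carries a disrupted allele. The kidney cortex is a mixture of cell types, so that fewer cells of a type and less RNA per cell cannot be told apart. The labels used here give no hour of collection, sex or litter for a library, and the parts of these that fall on a clock gene were not tested.

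The clock is a feedback loop in which ARNTL (also called BMAL1) pairs with CLOCK and switches on the PER and CRY genes, whose proteins come back to block that pair. A second loop runs through the nuclear receptors NR1D1 and NR1D2 (REV-ERB alpha and beta), which repress ARNTL and are themselves switched on by ARNTL and CLOCK. DBP is an output of the loop, a transcription factor that carries its rhythm to other genes. In the adult kidney the loop is known for daily rhythms of filtration and of sodium handling, and in many mammals it matures around and after birth.

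Total estimated counts per library ran from 32901281 to 52952273, so that the upper limit that a count of 0 allows, 3 counts, came to between 0.0567 and 0.0912 CPM (counts relative to library size; CPM of genes are scaled by TMM). All 10 genes passed the filter on low counts that left 20921 genes for testing. CFTR itself ran against the labels: its RNA was lowest in the libraries labelled WT (1.27 to 3.67 CPM), higher in those labelled HET (9.41 to 17.5) and highest in those labelled CF (12.5 to 23.5), so the genotypes below are those of the labels. The libraries also fall into earlier title numbers (1 to 6 and 12 to 18, 13 libraries) and later ones (7 to 11 and 19 to 23, 10 libraries), with 6 and 5 labelled CF, 3 and 3 labelled HET, and 4 and 2 labelled WT. That boundary was first seen in the expression of these same libraries, so its p-values describe the split and are no independent test of it. The libraries CF1, WT12 and HET20 stood apart by FOS, an immediate early gene, at 416.5, 154.8 and 61.8 CPM, against 2.23 to 6.41 CPM in the other 20, and the members' values for CF against non-CF, for later against earlier numbers and for pairs of genes are also given without them where that changes a member's call. Kidney markers were present throughout, with 6 proximal tubule genes adding up to between 6231 and 12677 CPM per library.

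Measured per length, in TPM, the repressor PER1 had the highest mean, 23.5 ± 5.89 TPM (SD, n = 23), and the activator CLOCK was next at 19.1 ± 2.30. The repressor CRY2 followed at 11.3 ± 2.0 TPM, then ARNTL at 9.72 ± 1.80, NR1D2 at 9.60 ± 2.07 and the repressor CRY1 at 8.69 ± 1.75. Lower still were PER3 at 4.35 ± 0.68 TPM, DBP at 3.75 ± 0.67 and PER2 at 3.02 ± 0.79, and NR1D1 was the lowest at 0.83 ± 0.37. Neighbors in this order were not all separate: CLOCK was above CRY2, CRY1 above PER3, and PER2 above NR1D1 in 23 of 23 libraries, but ARNTL was above NR1D2 in only 9 of 23. The remaining neighbors (PER1 and CLOCK, CRY2 and ARNTL, NR1D2 and CRY1, PER3 and DBP, DBP and PER2) kept the order of their means in 16 or 17 of 23 libraries. The 2 REV-ERB genes, which share a DNA-binding site and a role, were thus far apart in level.

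The spread over pigs differed between the genes too. On the log2 CPM scale the SD over 23 libraries was 0.63 for NR1D1, larger than that of 92.7% of the genes tested, and its CPM ran from 1.36 in CF11 to 10.4 in WT12. PER1 (SD 0.40), PER2 (0.37), NR1D2 (0.32) and CRY2 (0.28) also lay above the median SD of all genes tested, 0.26. DBP (0.24) and ARNTL (0.23) lay a little below it. PER3 (0.15), CRY1 (0.14) and CLOCK (0.11) varied least, with CLOCK between 76.1 and 99.7 CPM over the 23 pigs, and 2.38% of genes tested had a smaller SD than CLOCK.

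**Figure D1:**
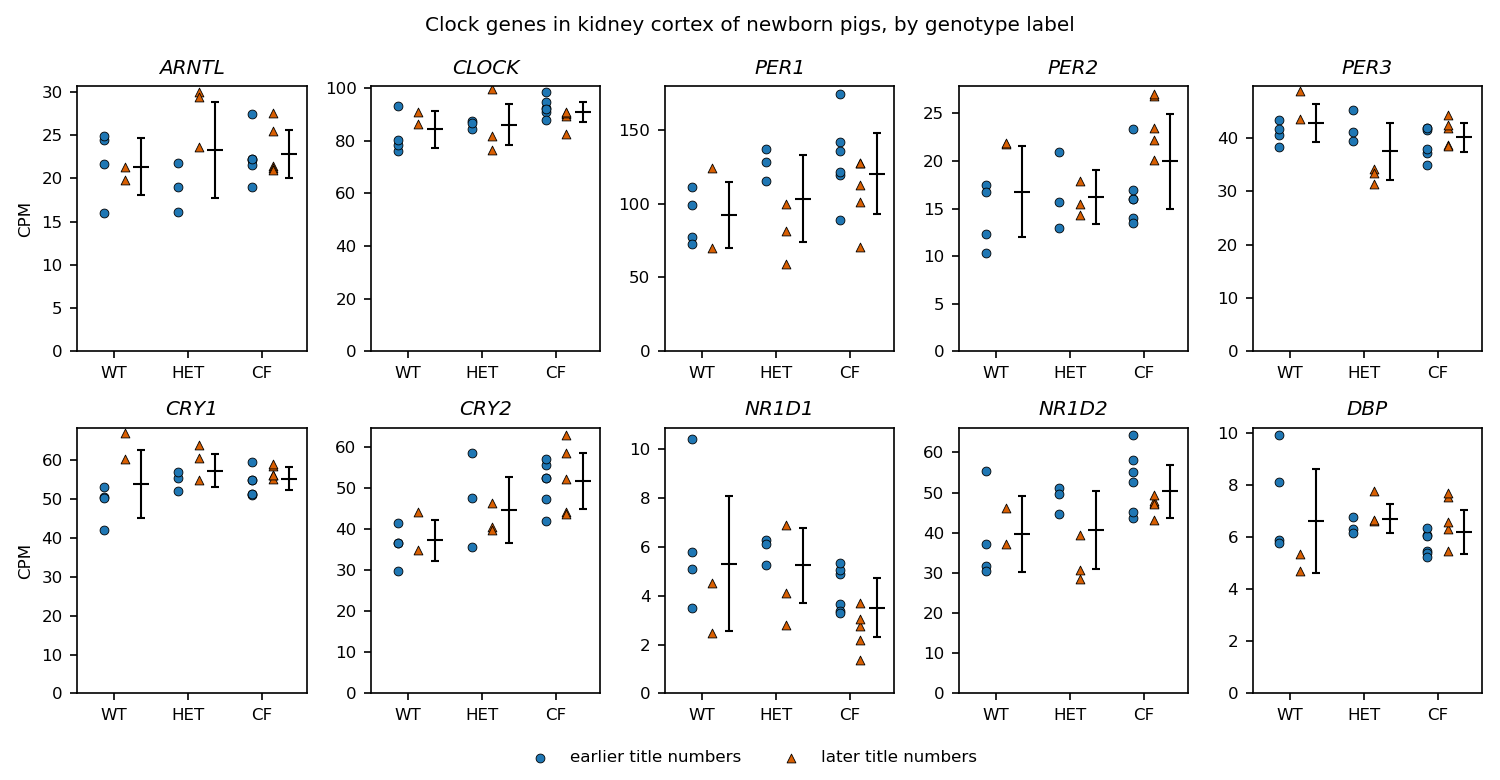
Each panel plots 1 clock gene, with CPM on the y axis from 0 and the genotype label on the x axis. Circles are libraries with earlier title numbers and triangles those with later ones, and the bar to the right of each group is its mean and SD. CRY2 and NR1D2 sit higher and NR1D1 lower in CF, and the highest WT point of NR1D1 and of DBP is WT12.

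Positions below are those of RefSeq genes on the pig assembly Sscrofa11.1. ARNTL lies at chr2:45895637-46025174 on the minus strand, CLOCK at chr8:54793323-54910192 (minus), PER1 at chr12:53361863-53376723 (minus), PER2 at chr15:137793419-137837854 (minus) and PER3 at chr6:68487634-68548718 (plus). CRY1 lies at chr5:13275265-13429566 (plus), CRY2 at chr2:16587101-16620380 (minus), NR1D1 at chr12:22263549-22274131 (plus), NR1D2 at chr13:10756954-10791219 (plus) and DBP at chr6:53986955-53993044 (minus). NR1D1 overlaps THRA on the opposite strand, CLOCK overlaps TMEM165 and CRY1 overlaps 4 genes. The kit kept strand, but whether counting used it is not given in the sources used here, so the counts of these 3 genes may hold reads of their neighbors.

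The stretches just before the gene starts show which clock genes carry the letters that clock proteins are known to bind. Searched on both strands from 250 bases before to 50 bases after each start, CACGTG (the E-box that ARNTL and CLOCK bind) was in 7.92% of 19534 promoters and in PER1 and PER3. The near-match CACGTT was in 5.32% of promoters and in CRY2 and NR1D1, in both on the strand opposite to the gene's own, so that the gene's strand as printed reads AACGTG. TTATGTAA and TTACGTAA (the D-box that DBP binds) were in 0.768% and 0.174% of promoters, and PER3 held both. Both forms of the RORE (the element that NR1D1 and NR1D2 bind) were rare, in 0.133% and 0.241% of promoters, and the more frequent form was in DBP alone among the 10, and TGACGTCA (the cAMP response element) was in 2.26% and in none of the 10. The most abundant transcript of ARNTL starts 83641 bases from the gene start searched and that of PER2 1591 bases from it, so the letters near those starts were not searched. Of the 5 genes with a match, PER1, PER3, CRY2 and NR1D1 are shown. DBP is left out because an annotated exon overlaps the 160 bases before its start. Each sequence is the 160 bases before the gene start, 5′ to 3′ on the gene's strand, with the matched letters in capitals: PER1 at chr12:53376724-53376883, PER3 at chr6:68487474-68487633, CRY2 at chr2:16620381-16620540 and NR1D1 at chr12:22263389-22263548.
PER1: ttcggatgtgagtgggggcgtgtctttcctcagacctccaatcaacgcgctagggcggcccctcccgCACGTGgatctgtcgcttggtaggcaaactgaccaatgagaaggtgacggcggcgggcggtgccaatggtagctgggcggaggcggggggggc
PER3: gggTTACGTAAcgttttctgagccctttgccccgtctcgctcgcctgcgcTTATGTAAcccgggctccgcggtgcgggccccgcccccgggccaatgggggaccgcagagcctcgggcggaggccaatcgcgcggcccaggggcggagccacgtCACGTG
CRY2: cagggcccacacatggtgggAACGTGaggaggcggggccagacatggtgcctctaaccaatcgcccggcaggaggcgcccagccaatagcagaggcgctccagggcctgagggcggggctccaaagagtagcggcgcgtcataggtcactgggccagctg
NR1D1: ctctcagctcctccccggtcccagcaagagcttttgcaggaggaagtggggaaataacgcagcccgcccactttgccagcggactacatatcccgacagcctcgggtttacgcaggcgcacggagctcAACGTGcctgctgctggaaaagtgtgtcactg
In PER1 the E-box spans positions -93 to -88 from the start, and in PER3 it ends at position -1. The match in CRY2 spans -140 to -135 and that in NR1D1 spans -32 to -27. A match is a run of letters in this window and does not show that a protein was bound there.

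Whether the clock differed between CF and non-CF pigs was asked first. None of the 10 genes passed an adjusted p of 0.05 in edgeR's quasi-likelihood test, in a comparison that called 73 of 20921 genes (0.349%). That count of all genes was unsteady, at 4 without CF1, WT12 and HET20, and from 17 without HET21 to 203 without CF4 when 1 library was left out. It fell by over 1.5 times also without CF6, CF7, CF8, CF9, HET14, HET20, WT12, WT16, WT17, WT18 or WT22, and was over 1.5 times as large also without CF2, HET13 or HET15. At an unadjusted p under 0.05 there were 4 of 10 (PER1, CRY2, NR1D1 and NR1D2), against 13.7% of all genes. No member kept its CF and non-CF values fully apart, as 0.00478% of genes tested did. DESeq2 called CRY2 alone of the 10 (adjusted p = 0.0292), where it called 2.48% of genes, and the study's own kind of test, an exact Mann-Whitney U test, called none of the 10 and 0.214% of genes. By that test 4 of the 10 had an unadjusted p under 0.05 (CLOCK, CRY2, NR1D1 and NR1D2, but not PER1), against 11.4% of genes.

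The repressor CRY2, which acts with the PER proteins, stood nearest to a call. In CF its CPM had a lowest, median and highest value of 42.0, 52.5 and 63.0, and in non-CF of 29.9, 40.2 and 58.5. All 11 CF libraries were above the non-CF median, though the ranges overlapped. The log2 fold change was 0.33 ± 0.09 (SE), with an edgeR adjusted p of 0.0858. It was 0.33 among earlier title numbers and 0.35 among later ones. Leaving out HET15, the highest non-CF library, gave 0.39 with an adjusted p of 0.0283. That was the only call among the 23 fits without 1 library, in which the adjusted p reached 0.151 (edgeR).

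The 2 REV-ERB genes had fold changes of opposite sign, and neither was called. NR1D1 ran from 1.36 through a median of 3.38 to 5.36 CPM in CF and from 2.48 through 5.17 to 10.4 in non-CF, so 10 of 11 CF libraries were below the non-CF median while the ranges overlapped. Its log2 fold change was -0.58 ± 0.22 (adjusted p = 0.212, edgeR). NR1D2 ran from 43.1 through 47.8 to 64.3 CPM in CF and from 28.4 through 38.3 to 55.3 in non-CF, with 11 of 11 CF libraries above the non-CF median and the ranges again overlapping. Its log2 fold change was 0.32 ± 0.11 (adjusted p = 0.146, edgeR). Taken as a difference of log2 CPM within each library, computed with a prior count of 2, NR1D2 minus NR1D1 had a lowest, median and highest value of 3.10, 3.90 and 5.14 in CF and of 2.15, 3.02 and 3.89 in non-CF. That difference was chosen after the values were seen and is given with no test.

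Among the PER genes, PER1, which responds to hormones and light as well as to the clock, ran from 70.7 through 121.1 to 173.7 CPM in CF and from 59.1 through 99.2 to 136.7 in non-CF. Most CF libraries, 9 of 11, were above the non-CF median, and the log2 fold change was 0.29 ± 0.14 (adjusted p = 0.359, edgeR). PER2 ran from 13.5 through 20.1 to 27.0 CPM in CF and from 10.3 through 16.2 to 21.9 in non-CF. The 5 CF libraries above every non-CF library were 1 with an earlier number and 4 with a later number, and the log2 fold change was 0.28 ± 0.14 (adjusted p = 0.372, edgeR). Its CF and non-CF means were 16.6 and 15.2 CPM in earlier numbers, and 23.9 and 18.3 in later ones. PER3, the repressor the loop can best do without, had nearly equal means of 40.1 ± 2.76 and 40.1 ± 5.12 CPM (SD, n = 11 and 12), with a 95% confidence interval of the log2 fold change from -0.13 to 0.14. The interval of CRY1 was -0.13 to 0.12, with means of 55.3 ± 3.08 CPM in CF and 55.6 ± 6.80 in non-CF.

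Neither the activators nor the output gene were called. ARNTL averaged 22.8 ± 2.75 CPM in CF and 22.3 ± 4.45 in non-CF, and its log2 fold change had an interval of -0.17 to 0.23. CLOCK averaged 91.0 ± 3.95 and 85.2 ± 7.10 CPM, with 10 of 11 CF libraries above the non-CF median and a log2 fold change of 0.09 ± 0.05 (adjusted p = 0.383, edgeR). By range its CF and non-CF means were 92.8 and 83.9 CPM in earlier numbers, and 88.8 and 87.1 in later ones. DBP averaged 6.21 ± 0.83 and 6.68 ± 1.40 CPM, with an interval of -0.32 to 0.11. Beside these, 5 distal tubule and Henle loop markers summed to 1105 to 1782 CPM in CF and 1144 to 2217 in non-CF. Their fitted log2 fold changes were below 0 for 4 of 5, where 49.8% of all genes were above 0. Of those 4, 3 had an unadjusted p under 0.05, against 13.7% of all genes. The values ran from -1.40 ± 0.34 for CALB1 (adjusted p = 0.0636, edgeR) to 0.28 ± 0.19 for UMOD. The fitted values of the proximal tubule list were above 0 for 6 of 6, with a median of 0.11 and 1 at an unadjusted p under 0.05. No marker of the 12 cell type lists was called in this comparison by edgeR, and their part in the clock genes' values was not tested.

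**Figure D2:**
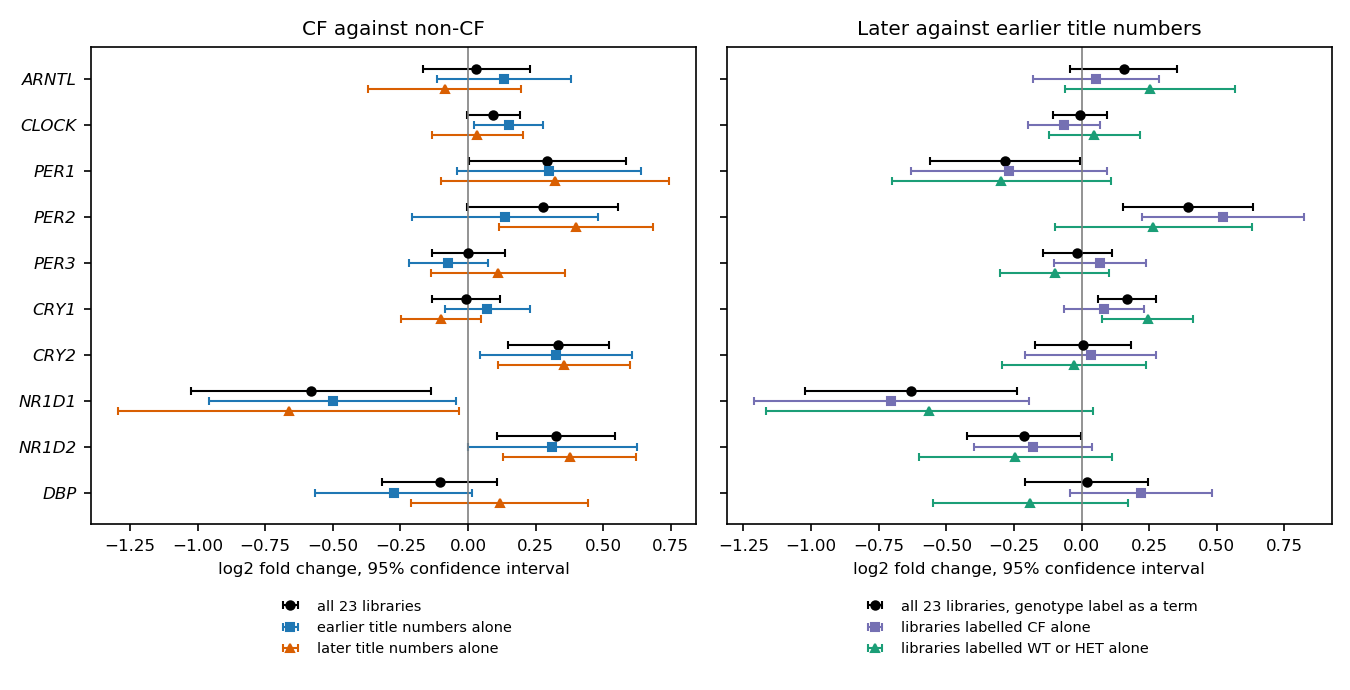
The x axis is the log2 fold change with its 95% confidence interval and the y axis lists the 10 clock genes. On the left CF is set against non-CF in all 23 libraries (black), in earlier title numbers alone (blue) and in later ones alone (orange), and on the right later against earlier numbers in all libraries (black), in CF alone (violet) and in WT and HET alone (green). NR1D1 lies below 0 in all 6 fits, and CRY2 and NR1D2 lie above 0 in all 3 fits of CF against non-CF.

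Taking the 3 genotype labels apart, with the same CF libraries in both of their comparisons, put CRY2 in an order of WT, HET and CF. Its CPM was 29.9, 36.6 and 44.1 (lowest, median, highest) in the libraries labelled WT, 35.7, 43.4 and 58.5 in those labelled HET, and 42.0, 52.5 and 63.0 in those labelled CF. In CF, 9 of 11 libraries were above every WT library, and no member had values fully apart, as 0.229% of genes had. The difference of CF from WT was a log2 fold change of 0.47 ± 0.10 with an adjusted p of 0.0445, 1 of 10 clock genes called where edgeR called 0.349% of all genes. The count of all genes behind that share, 73, ran from 20 without WT12 to 203 without CF4. It also fell by over 1.5 times without CF2, CF5, CF7, CF8, CF9, WT16, WT17, WT18 or WT22, and was 194 without WT23. At an unadjusted p under 0.05 there were 4 of 10 (PER1, CRY2, NR1D1 and NR1D2), against 14.1% of all genes. Without 1 library the call was lost in 14 of 23 cases, with an adjusted p from 0.0517 to 0.112: CF1, CF2, CF3, CF5, CF7, CF8, CF9, HET14, HET20, WT12, WT16, WT17, WT18 or WT22. The fold change itself stayed between 0.42 and 0.52 over all 23. With no filter on low counts the adjusted p was 0.0539.

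HET lay between the other labels for CRY2, 0.26 ± 0.12 above WT and 0.21 ± 0.10 below CF on the log2 scale, and neither step was called. Without HET15 these steps were 0.17 and 0.30. Of the 10 genes, 0 were called in CF against HET, where edgeR called 0.0% of genes and 9.89% had an unadjusted p under 0.05, which NR1D1 and NR1D2 also had. Likewise 0 were called in HET against WT, where edgeR called 0.00478% of genes and 7.99% had an unadjusted p under 0.05, which CRY2 and PER3 also had. DESeq2 called 0 of the 10 in either, and 0.311% and 0.158% of genes. NR1D1 had a log2 fold change of -0.59 ± 0.26 in CF against WT, which was -0.27 without WT12, and of -0.57 ± 0.26 in CF against HET. NR1D2 had 0.34 ± 0.13 and 0.31 ± 0.13. PER1 was 0.38 ± 0.18 above WT in CF. PER3 had a log2 fold change in HET against WT of -0.19 ± 0.08 (adjusted p = 0.612, edgeR): the 3 HET libraries with later numbers had 31.4, 34.2 and 33.5 CPM in HET19, HET20 and HET21, below the lowest of the other 20 libraries, 35.0 CPM in CF5.

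In later against earlier title numbers the clock genes called were PER2, CRY1 and NR1D1, and the values of each overlapped between the ranges. These 3 of 10 were called by edgeR with the genotype label as a term, in a comparison that called 2073 genes, 9.91% of all tested, and 1293 without CF9 or 1047 without WT22. At an unadjusted p under 0.05 there were 5 of 10, with PER1 and NR1D2 added, against 26.7% of all genes. DESeq2 called the same 3 genes of the 10 and 13.5% of all genes. No member had later and earlier values fully apart, as 0.0813% of genes had.

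The repressor PER2 had a lowest, median and highest value of 14.3, 21.8 and 27.0 CPM in later libraries and of 10.3, 16 and 23.4 in earlier ones. Of 10 later libraries, 8 were above the earlier median, and the ranges overlapped. The log2 fold change was 0.39 ± 0.12 (adjusted p = 0.0346, edgeR). Within labels, PER2 was higher in later numbers in CF, where the means were 23.9 ± 3.01 and 16.6 ± 3.56 CPM (SD, n = 5 and 6), and in WT, at 21.8 CPM in WT22 and 21.9 in WT23 against 10.3 to 17.5 in the 4 earlier libraries. In HET the values were 14.3 to 17.9 CPM in later and 12.9 to 21 in earlier libraries.

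CRY1 ran from 55.0 through 58.7 to 67.0 CPM in later libraries and from 42.0 through 52.1 to 59.6 in earlier ones, and all 10 later libraries were above the earlier median. Its log2 fold change was 0.17 ± 0.05 (adjusted p = 0.0418, edgeR). The later and earlier means of CRY1 were 57.0 and 53.9 CPM in CF, nearer to each other than the 61.4 and 51.5 in non-CF. NR1D1 ran from 1.36 through 2.93 to 6.90 CPM in later libraries and from 3.31 through 5.10 to 10.4 in earlier ones, with 9 of 10 later libraries below the earlier median and 6 below every earlier library. Its log2 fold change was -0.63 ± 0.19 (adjusted p = 0.0376, edgeR). PER2 and CRY1 thus lay on 1 side and NR1D1 on the other.

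These 3 calls were near their limit. Among CF libraries alone 0 of the 10 genes were called (0.387% of all genes), among WT and HET libraries alone 0 (4.65%), and without CF1, WT12 and HET20 0 (7.44%), with log2 fold changes in that last fit of 0.37 for PER2, 0.14 for CRY1 and -0.55 for NR1D1. Leaving out 1 library gave 0 calls without CF3, CF9, HET13 or WT22, and 1 call without CF11, HET15, HET19, HET20 or WT12. PER2 lost its call without CF3, CF7, CF9, HET13, WT12, WT22 or WT23, with an adjusted p of at most 0.0783. NR1D1 lost it without CF3, CF4, CF5, CF9, CF11, HET13, HET15, HET19, HET20 or WT22, with at most 0.0941, and also with no genotype term (0.0650). CRY1 lost it without CF2, CF3, CF9, CF11, HET13, HET15, HET19, HET20, WT12, WT16, WT17, WT18, WT22 or WT23, with at most 0.122, and also with no filter on low counts (0.0611). The fold changes of the 3 kept their direction in each of these fits.

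Of the other members, PER1 ran in later libraries from 59.1 through 100.2 to 127.7 CPM against 72.9 through 119.6 to 173.7 (log2 fold change -0.28 ± 0.13, adjusted p = 0.177, edgeR), and without WT23 the log2 fold change was -0.41 with an adjusted p of 0.0435. NR1D2 had a log2 fold change of -0.21 ± 0.10 (adjusted p = 0.184, edgeR), with all 10 later libraries below the earlier median. ARNTL had 0.16 ± 0.10 (adjusted p = 0.311, edgeR), and in HET its later libraries (23.6, 29.3 and 29.9 CPM) were all above its earlier ones (16.1, 18.99 and 21.8). CLOCK, PER3, CRY2 and DBP had log2 fold changes between -0.02 and 0.02, and the interval of CLOCK was the narrowest, -0.11 to 0.10. In this comparison 4 of the 12 cell type lists had 1 gene each called by edgeR, beside 9.91% of all genes: PVALB of the distal tubule (1 of 5 tested) was higher (log2 fold change 0.93, adjusted p = 0.00644), and AQP2 of the collecting duct (1 of 5; -0.62, adjusted p = 0.0453), STAR of the adrenal cortex (1 of 4; -0.34, adjusted p = 0.0432) and ALB of the liver (1 of 2; -2.13, adjusted p = 0.0309) were lower. The fitted values of the collecting duct list were above 0 for 3 of 5, with a median of 0.00, and that of the adrenal gene CYP21A2 was 0.35 ± 0.31. Those of the stroma list were below 0 for 4 of 4, with a median of -0.27 and 0 called. Of these 4, 2 had an unadjusted p under 0.05, against 26.7% of all genes. Their part in the clock genes' values was not tested.

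The CF effect could also differ between the 2 ranges of title numbers, and this difference was tested itself. None of the 10 genes was called by edgeR, in a test that called 4 genes (0.0191%), and none had an unadjusted p under 0.05, against 10.1% of all genes. DESeq2 called 0 of the 10 as well, and 0.829% of genes. The smallest p belonged to DBP, with a difference of 0.39 ± 0.20 (adjusted p = 0.524, edgeR): its log2 fold change of CF against non-CF was -0.28 in earlier numbers and 0.12 in later ones. WT12, which had the highest DBP of all libraries at 9.95 CPM, is among the earlier controls. For NR1D1, NR1D2 and CRY2 the intervals of that difference were -0.94 to 0.60, -0.36 to 0.48 and -0.36 to 0.41.

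The 10 genes form 45 pairs, and how they varied together over the 23 pigs was described by Pearson's r of log2 CPM, with two-sided permutation p-values adjusted over the 45 pairs. Of the 45, 23 were positive and 22 negative, 11 had an unadjusted p under 0.05 and 1 passed the adjustment. That pair was ARNTL and PER3, with r = -0.66 (p = 0.00058, permutation test, adjusted 0.0261) and Spearman's rho = -0.73 (p = 0.00017, adjusted 0.00765). Without HET19 and WT12, the 2 libraries farthest from the median of ARNTL, r was -0.57. It was -0.50 within earlier numbers (n = 13) and -0.85 within later ones (n = 10), and -0.70 in residuals after genotype label and number range. The 3 later HET libraries made up the low end of PER3, and 2 of them, HET19 and HET20, held the highest ARNTL, 29.9 and 29.3 CPM.

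This relation turned on the scale. On log2(TPM + 0.1) r was -0.04. The median log2(TPM + 0.1) of all genes tested ran from 2.19 to 2.64 over the libraries, and when that median was taken off each library, an alternative chosen after seeing the data, r was -0.61 (p = 0.0019, permutation test, adjusted 0.0615). The adjusted p also passed 0.05 without CF5, HET19 or HET20, reaching 0.0659, and without the 3 libraries with high FOS it was 0.123, at an r of -0.62.

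**Figure D3:**
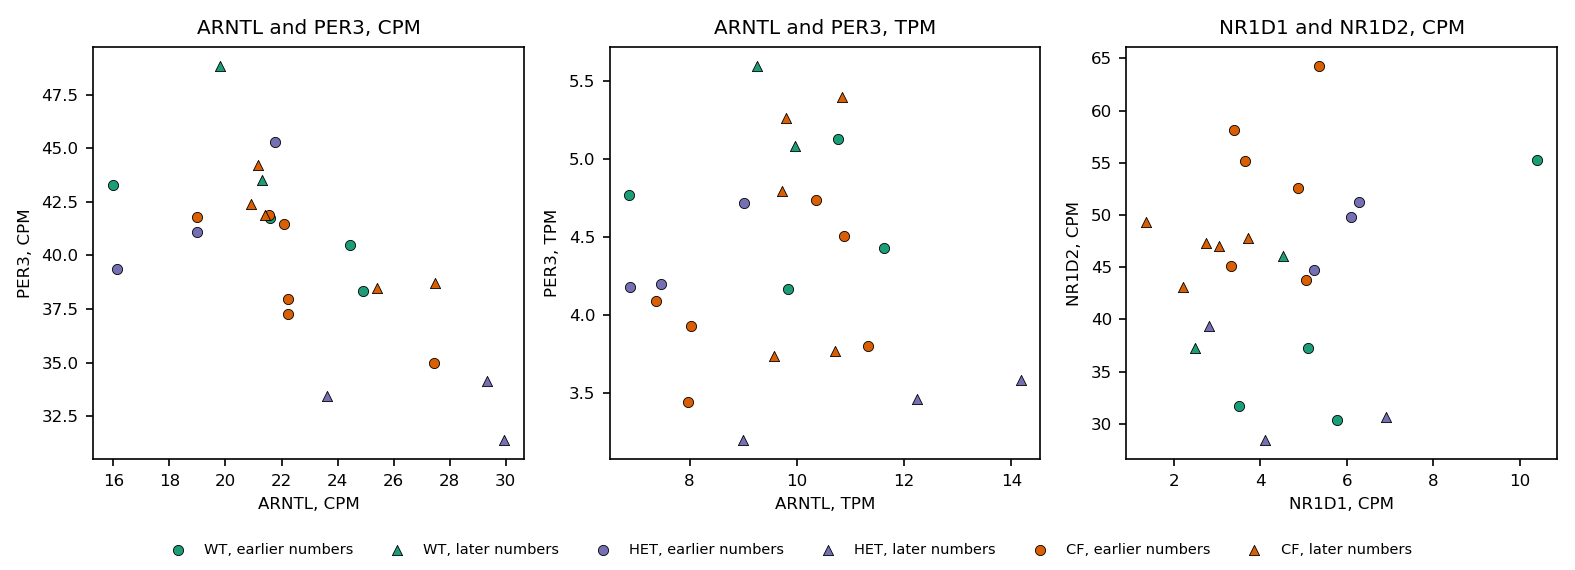
Each point is 1 library, colored by genotype label, as a circle for earlier and a triangle for later title numbers. The left and middle panels plot PER3 against ARNTL in CPM and in TPM, and the right panel NR1D2 against NR1D1 in CPM. In CPM the points fall from upper left to lower right (r of log2 values = -0.66), in TPM they do not (-0.04), and in the right panel r is 0.02.

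Other pairs did not pass the adjustment of Pearson's r. PER1 and NR1D2 rose and fell together at r = 0.60 (p = 0.00262, permutation test, adjusted 0.0589), and their Spearman's rho of 0.68 did pass (p = 0.0005, adjusted 0.0112). Without HET19 and WT22 that r was 0.61, and within earlier and later numbers it was 0.63 and 0.46, but in residuals after genotype label and number range it was 0.39. PER2 and CRY1 had r = 0.56 (adjusted 0.0700), 0.60 within earlier numbers and -0.18 within later ones. PER2 and NR1D1 had r = -0.55 (adjusted 0.0700), and -0.18 and -0.52 within the ranges. CRY1 with NR1D1 (r = -0.54) and CLOCK with DBP (-0.53) rested on 2 libraries each, and were -0.27 without WT12 and WT22 and -0.26 without WT12 and HET21. The REV-ERB paralogs had r = 0.02, which was 0.14 within earlier numbers and -0.55 within later ones, and ARNTL with its partner CLOCK had 0.26. Along the loop that runs from the REV-ERB genes to ARNTL, r was -0.35 for NR1D1 and -0.39 for NR1D2, with neither at an unadjusted p of r under 0.05, and for NR1D1 it was -0.52 within earlier and 0.13 within later numbers.

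**Figure D4:**
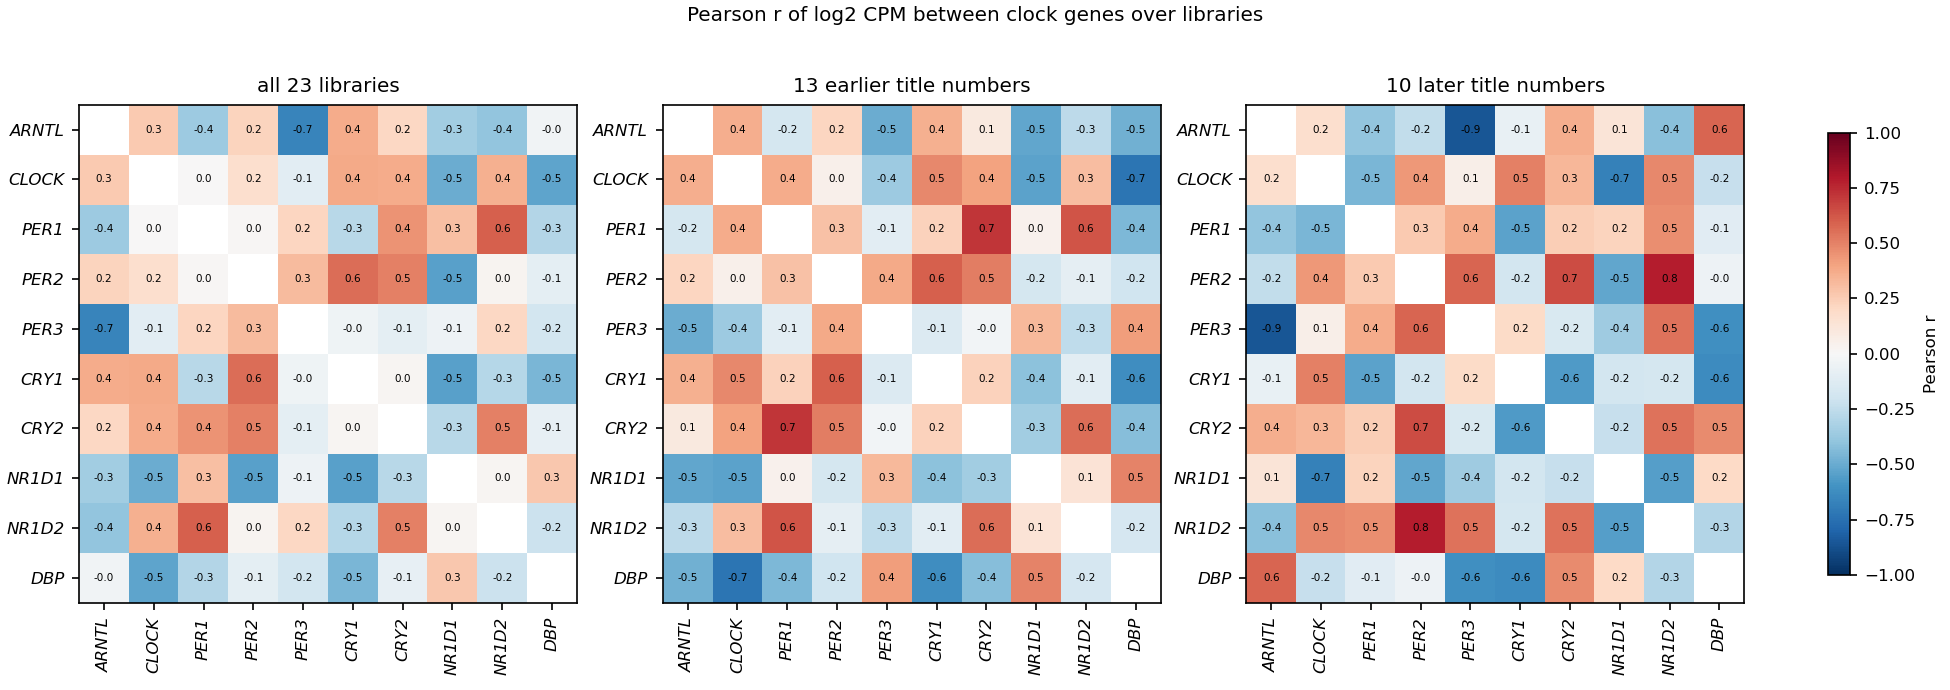
The 3 grids give Pearson's r of log2 CPM for each pair of clock genes over all 23 libraries, over the 13 with earlier and over the 10 with later title numbers, with red for positive and blue for negative r. ARNTL and PER3 are blue in all 3 grids, and PER2 with CRY1 and ARNTL with DBP change color between the ranges.

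The genes most like ARNTL and NR1D1 over the 23 libraries, by Pearson's r of log2 CPM among the 20920 other genes tested, lay outside the clock. They are given as a description, since libraries of 1 range or label share much else. For ARNTL they were CFB (a complement factor, r = 0.82), LOC106505298 (0.78), TPD52 (0.78), SLC39A8 (a zinc and manganese carrier, 0.77) and TLR3 (a receptor for double-stranded RNA, 0.77), and PER3 was 20893rd of 20920. NR1D1 was most alike to MICAL1 (0.87), RGS20 (0.82), PELI3 (0.81), IGSF9B (0.80) and PHF19 (0.80). Among the clock genes the highest r with NR1D1 was that of PER1, 0.30.

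Beyond the 10, a list of 23 symbols for other genes of the clock loops and their outputs had 20 measured and tested. ARNTL2, which was tested, and BMAL2, which was not in the annotation, name the same gene. In CF against non-CF 0 of 20 were called by edgeR (0.349% of all genes). At an unadjusted p under 0.05 there were 3, all higher in CF, against 13.7% of all genes. Among them was BHLHE40, a repressor of clock targets (log2 fold change 0.50 ± 0.14, adjusted p = 0.0889). Without CF1, WT12 and HET20 its log2 fold change was 0.44 ± 0.15 (adjusted p = 0.205, edgeR). The median log2 fold change of the 20 was -0.00, and 9 were higher and 11 lower. In later against earlier numbers 2 of 20 were called (9.91% of all genes): NOCT, a gene with a strong daily rhythm in other tissues, was higher (0.39 ± 0.09, adjusted p = 0.00980) and HLF, a relative of DBP, was lower (-0.31 ± 0.09, adjusted p = 0.0348). BHLHE40 stood just outside (0.38 ± 0.12, adjusted p = 0.0507). Without CF1, WT12 and HET20 the count was 3 of 20 (7.44% of all genes), NOCT and HLF again with BHLHE40 (0.52 ± 0.11, adjusted p = 0.00753, edgeR). The difference of the CF effect between ranges was called in 0 of 20 (0.0191% of all genes), with 5 of 20 at an unadjusted p under 0.05, all of them lower, against 10.1% of all genes. BHLHE41, a paralog of BHLHE40, had the smallest p of the 20, with a difference of -1.27 ± 0.25 (adjusted p = 0.0588, edgeR). Its level was low, from 0.83 through a median of 2.37 to 3.26 CPM over the libraries.

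Signals that are known to reset clocks were looked at through lists of their own. Of 9 glucocorticoid targets and receptors 0 were called in CF against non-CF (0.349% of all genes). At an unadjusted p under 0.05 there were 5 (13.7%), 4 higher and 1 lower in CF. KLF9 was nearest to a call (0.37 ± 0.08, adjusted p = 0.0508, edgeR). Without CF1, WT12 and HET20 it had 0.36 ± 0.09 (adjusted p = 0.120, edgeR). In later numbers 2 were called, both higher (9.91% of all genes called). They were SGK1, which regulates sodium channels (0.74 ± 0.09, adjusted p = 4.85e-05), and TSC22D3 (0.28 ± 0.09, adjusted p = 0.0498). Of 8 genes that respond to temperature 0 were called in CF against non-CF (0.349% of all genes). At an unadjusted p under 0.05 there were 3 (13.7%), 1 higher and 2 lower in CF. HSPB1 was nearest to a call (-0.46 ± 0.15, adjusted p = 0.131, edgeR). In later numbers 3 of 8 were called, again beside 9.91% of all genes. The fitted values of the list were above 0 for 4 and below 0 for 4, with a median of -0.01. RBM3, an RNA-binding protein that cold induces, was higher (0.77 ± 0.12, adjusted p = 0.000548), as was HSPA8 (0.50 ± 0.16, adjusted p = 0.0472), while HSPB1, a heat shock protein, was lower (-0.49 ± 0.12, adjusted p = 0.0129). Of 14 immediate early genes 13 were tested, and 0 were called in either comparison, though the fitted log2 fold change was above 0 in CF for 13 of 13 (49.8% of all genes), with a median of 0.44, and below 0 in later numbers for 13 of 13 (49.9% of all genes were above 0), with a median of -0.93. Without CF1, WT12 and HET20 the medians were 0.17 and 0.01, with 12 of 13 above 0 in CF and 8 of 13 above 0 in later numbers. Their summed level reached 1824 CPM in CF1 and had a median of 147.6 CPM in CF and of 133.3 in non-CF. Whether any of these signals had a part in the clock genes' values was not tested.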

How the data were processed

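Kidney cortex RNA from 23 newborn pigs (11 CF, 6 HET, 6 WT) was rRNA-depleted and sequenced with a stranded total RNA kit. The authors quantified transcripts with kallisto against Sscrofa11.1 and deposited, per the file headers, 1 table per pig with estimated counts and TPM for 77689 transcripts, each paired with a gene by a deposited table. Whether the strand was used is not given in the sources used here. Each library's group came from its genotype label, and 0 columns were left without a sample.

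The deposited estimated counts were summed per gene symbol and rounded, and the deposited TPM were summed per symbol to compare levels between genes. Tests used edgeR 4.0.16 in R 4.3.3 (TMM, filterByExpr on CF and non-CF, glmQLFit and glmQLFTest), with Benjamini-Hochberg adjustment over all 20921 genes within a comparison and a call at an adjusted p under 0.05. CPM are TMM-scaled, and log2 CPM have a prior count of 2. Confidence intervals use the fit's own degrees of freedom. Correlations used 100000 resamples. Motifs were searched and sequences read from RefSeq's Sscrofa11.1. The fits were tested on simulated data. Since the files give 1 library per pig, p-values measure the spread between pigs. Litter, which the labels do not give, could not be taken into account. The floor of 3 counts covers counting error only.

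Alternatives were DESeq2 1.42.0, median-of-ratios and upper-quartile scaling, no filter, number range as a term, subsets of libraries, each library left out, and an exact Mann-Whitney U test on median-of-ratios counts with at least 5 counts in 47% of libraries. The fit without the 3 libraries with FOS above 50 CPM and the TPM scale less the library median were added after seeing the data.

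The 10 members, the gene lists (other clock genes, glucocorticoid, immediate early and temperature-responsive genes) and the 12 cell type marker lists were chosen with earlier results of these data known. Genes named are the 10 members, CFTR, up to 4 genes of smallest p per list and comparison, and the 5 genes most correlated with ARNTL and with NR1D1. BHLHE41, named for its p in the test of the difference between ranges, FOS, and the markers CALB1, UMOD, PVALB, AQP2, STAR, CYP21A2 and ALB were chosen after their values were seen. Some genes of the lists are not reported here by name.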

Additional observations from a re-analysis of the deposited data

Results flagged for a closer look

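DBP in HET21 lay at 7.81 CPM, apart from the other 5 libraries labelled HET, which ran from 6.18 to 6.77 CPM. The gap to the nearest library was 0.639 of the group's range, over the limit of 0.625 for 6 libraries. This was the 1 of 20 groups of clock gene values in which a library stood apart in this way, and chance alone gives about 1 in 20. The groups were each clock gene in WT and in HET, and the libraries labelled CF were not checked in this way.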

How the results depend on the processing

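No paired analysis was possible because the labels give no litter for a library, and each replicate number is that of 1 pig. Of the members' fold changes under the alternatives run (all 10 members, but for pairs of genotype labels PER1, PER3, CRY2, NR1D1 and NR1D2 only), 944 kept direction and side of the threshold, 57 kept direction but lost a call, 4 gained a call and 60 turned direction. In CF against non-CF, 1 member was called with DESeq2 and 1 with WT alone as control, 0 to 1 without 1 library, and none by the Mann-Whitney test. In CF against WT, 0 were called with no filter and 0 to 1 without 1 library. In later against earlier numbers, 0 were called in CF alone, 0 in WT and HET alone, 0 without the 3 libraries with high FOS, and 0 to 3 without 1 library. By Pearson's r, 0 of the 45 pairs passed the adjustment within earlier numbers, 0 within later numbers and 0 without the high-FOS libraries. In residuals 2 passed, 2 on log2(TPM + 0.1), 0 on that scale less the library median, and 0 to 6 without 1 library. These were 6 without CF9, 3 without CF4, 2 without HET21, WT12 or WT18, and 0 without CF5, HET19 or HET20. By Spearman's rho, 0 passed within earlier numbers, 0 within later numbers, 2 without the high-FOS libraries and 1 in residuals. On log2(TPM + 0.1) 1 passed by rho, and 2 on that scale less the library median. The cause of these changes was not tested.

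Direction turned mostly where values were near 0. For log2 fold changes of CF against non-CF this was so for ARNTL in later numbers (-0.085), DBP in later numbers (0.12), PER3 with upper-quartile scaling (-0.015), in earlier numbers (-0.072) and against WT alone (-0.092), and CRY1 in earlier numbers (0.071) and against WT alone (0.037). For HET against WT it was so for NR1D1 with number range as a term (0.13). For later against earlier it was so for CLOCK (0.047), CRY2 (-0.027) and DBP (-0.19) in WT and HET alone, PER3 in CF alone (0.068) and CRY2 with no filter (-0.0049). For Pearson's r it was so for ARNTL with NR1D1 in later numbers (0.13), and for ARNTL with DBP in later numbers (0.58), without the libraries with high FOS (0.29), on log2(TPM + 0.1) (0.13) and on that scale less the library median (0.0023). Without 1 library, the CF against non-CF values of ARNTL, CRY1 and PER3 ran from -0.0050 to 0.076, -0.038 to 0.019 and -0.028 to 0.030. The later against earlier values of CLOCK, CRY2, DBP and PER3 ran from -0.032 to 0.0077, -0.042 to 0.050, -0.019 to 0.090 and -0.051 to 0.014. HET against WT values of NR1D1 and NR1D2 ran from -0.16 to 0.30 and -0.040 to 0.16, and r of ARNTL with DBP from -0.10 to 0.30. The lowest estimated count behind a member's value was 46, of NR1D1 in CF11, and the part of counting error in its spread was not tested.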
